A study of Mus musculus with 26 samples.

Results

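The proteasome subunit genes are described here across CD4 and CD8 double positive (DP) cells of 3 mouse tissues. Every gene of the deposited table whose symbol starts with Psma, Psmb, Psmc, Psmd, Psme or Psmg and goes on with a digit was taken, which gave 47 of 13765 genes. They comprise 7 alpha-ring genes, 7 constitutive beta-ring genes, 3 immunoproteasome genes, the thymoproteasome gene Psmb11, 6 regulatory ATPase genes, 11 other regulatory particle genes, 3 regulatory particle chaperones, 4 core particle chaperones and 4 activators. The last gene the rule takes, Psmc3ip, shares only the name: it encodes a partner of a proteasomal ATPase that acts in meiotic recombination, and it was kept in all counts of members. In all, 46 of the 47 passed the filter on low values, a normalised read count of at least 100 in at least 4 pools, among 9106 tested genes; Psmb11 did not pass.

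The groups were DP cells of aortic arch, DP cells of mediastinal adipose tissue and DP cells of thymus, all from female C57BL/6J mice 8 weeks of age; the labels name no treatment or genetic change. A pool joined the tissue of 5 mice, and there were 4 pools per tissue (n = 4 throughout). They were made of 9 arch, 8 adipose and 9 thymus libraries. Pool 1 of each tissue held 3 libraries, adipose pool 2 held 1 and each other pool held 2. The gate took viable CD4+CD8b+TCR- cells, 400 at a time, and a library was made from 200 of them, so a pool is a small sample of the cells of its tissue. A digestion step is named for arch and adipose tissue and not for thymus, so tissue and digestion cannot be told apart. These are bulk samples, in which fewer cells of a type and less RNA per cell cannot be told apart.

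The proteasome degrades proteins tagged with ubiquitin. Its barrel-shaped core is built of alpha rings, which gate the entrance, and beta rings, in which Psmb5, Psmb6 and Psmb7 encode the proteolytic subunits. A regulatory particle with a ring of ATPases (Psmc genes) and a set of other subunits (Psmd genes) recognises, unfolds and feeds in the substrate. In lymphoid cells and under interferon-gamma, Psmb8 replaces Psmb5, Psmb9 replaces Psmb6 and Psmb10 replaces Psmb7 to form the immunoproteasome, whose products favour presentation on MHC class I. In thymic cortical epithelium Psmb11 takes the Psmb5 position instead. PA28, the activator made of the products of Psme1 and Psme2, caps the core without ATP and is also induced by interferon-gamma.

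Short stretches of the promoters were read to show which members carry letters of the elements through which interferon (the gamma-activated site and the core of the interferon-stimulated response element) and the transcription factors NFE2L1 and NFE2L2 (the antioxidant response element core) are known to act. RefSeq promoters on GRCm38.p6 were present for 40 of the 47 members (43 promoters, some genes having more than 1), and the 250 bases before each start were searched on both strands. TTCNNNGAA was found in 2 members, Psmb8 and Psmg1, and in 7.02% of all 32851 promoters in the table. GAAA followed after any 2 bases by GAAA was found in 3 members, Psmb3, Psmd4 and Psmd9, against 2.98% of all promoters. TGACNNNGC was found in 5 members, Psmb5, Psmb6, Psmc6, Psmd12 and Psmd9, against 10.2% of all promoters. A heat shock element (GAA, TTC and GAA, each 2 bases apart; 0.466% of all promoters) and a cAMP response element (TGAC followed by GTCA; 1.55%) were found in 0 of the 40 members. Members were counted by gene, where a match in any of its promoters was enough, while the percentages count promoters. Matches are printed 5′ to 3′ on the strand of the gene with the element in capitals. Those of Psmb3 and Psmd4 are in the reverse orientation. The antioxidant response element matches of Psmc6, Psmd12 and Psmd9 are not printed. No printed match overlaps another.
Psmb8: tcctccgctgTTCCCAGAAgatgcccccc
Psmg1: actcatgTTCTCTGAAtccgcttgca
Psmb3: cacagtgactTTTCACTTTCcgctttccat
Psmd4: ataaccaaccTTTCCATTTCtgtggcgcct
Psmd9: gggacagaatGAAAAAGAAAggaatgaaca
Psmb5: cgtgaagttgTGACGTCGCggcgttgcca
Psmb6: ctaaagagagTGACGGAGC
The Psmb8 match lies 97 bases before the start, at chr17:34198088-34198116 on the plus strand, before a RefSeq start that lies inside the gene span GENCODE gives, and that of Psmg1 243 bases before its start, at chr16:95991185-95991210 on the minus strand. The Psmb5 match lies at chr14:54618024-54618052 (minus strand) and the Psmb6 match at chr11:70525338-70525356 (plus strand). The matches of Psmb3, Psmd4 and Psmd9 lie at chr11:97703261-97703290 (plus), chr3:95042675-95042704 (minus) and chr5:123228021-123228050 (plus). That of Psmd9 lies inside the gene span GENCODE gives, chr5:123169413-123250131, and not near its first base. The matches describe letters in these windows and no binding was measured.

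Recovered reads per pool numbered 11577253 to 26551456 in arch, 14279190 to 33540294 in adipose pools and 13473516 to 34599519 in thymus. All 10 DP thymocyte markers, Cd4, Cd8a and Rag1 among them, had reads in every tissue, and their sum was 6934 to 8109 CPM (reads scaled to a common total per pool) in arch, 5552 to 11556 CPM in adipose pools and 17663 to 20675 CPM in thymus. Of the 10, 5 were called lower in arch and 6 lower in adipose tissue than in thymus. The largest sums of markers of cells outside the sort gate were in 3 pools. The 10 fibroblast markers summed to 0.0753 to 3806 CPM in arch (highest in pool 4), 0.0372 to 119.6 CPM in adipose tissue and 0 to 3.83 CPM in thymus, the 6 smooth muscle markers reached 1850.2 CPM in arch pool 2, and the 7 MHC class II genes reached 1741 CPM in adipose pool 1. Some other sets peaked in other pools at lower sums. Among them were the natural killer and innate lymphoid set at 351 CPM in thymus pool 1 and the dendritic cell set at 121 CPM in adipose pool 4. The thymic epithelium set peaked at 65.3 CPM in thymus pool 4. By tissue mean the largest genes of these sets were Gata3 (150 CPM, thymus), Ccr7 (71.1 CPM, adipose tissue) and Epcam (19.9 CPM, thymus). Klrk1, Rora and Nkg7 had no read in thymus, and Foxn1, Krt5, Krt8 and Krt14 were not measured. Such sums do not by themselves show that these cells were present. Rora, of the innate lymphoid set, was the 1 tested marker outside the DP list that was called: it had 0 reads in all thymus pools and was higher in adipose tissue (limma adjusted p = 0.0171). Most measured markers outside the DP list did not pass the filter and were not tested. Those tested included only 1 of 10 measured fibroblast, 1 of 6 smooth muscle and 1 of 11 macrophage and monocyte markers. The 3 pools with the largest sums are called the marker-rich pools, and the results for members were also computed without them. Per-pool values are normalised read counts, and log2 changes are of normalised read count + 20 with standard errors (SE) from limma; a gene was called at a Benjamini-Hochberg adjusted p under 0.05 over all 9106 tested genes.

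Psmb8 was the 1 member called in either comparison with thymus, and it was lower in both arch and adipose tissue. In arch 0 of 46 tested members were called higher and 1 lower, where 3.99% of all tested genes were called higher and 2.58% lower (6.57% in all). In adipose tissue 0 were called higher and 1 lower, against 2.17% and 0.67% of all tested genes (2.84% in all). Between arch and adipose tissue 0 members were called by limma, where 0.0988% of all tested genes were called higher in arch and 0.0769% lower (0.176% in all); 2 members (4.35%) had an unadjusted p under 0.05, beside 10.5% of all tested genes, and edgeR and DESeq2 on recovered reads called 0 members each. At an unadjusted limma p under 0.05 there were 9 members in arch against thymus (3 alpha-ring, 1 beta-ring, 2 immunoproteasome, 1 ATPase, 1 other regulatory and 1 activator gene) and 3 in adipose tissue against thymus (1 alpha-ring and 2 immunoproteasome genes). These are 19.6% and 6.52% of the tested members, beside 22.7% and 12.8% of all tested genes. DESeq2 added Psma3 and Psmb9 to Psmb8 in arch, and edgeR added none. Over all genes DESeq2, run without the filter on low values, called 1269 in arch against thymus, where limma called 598 and edgeR 365. Both thymus comparisons use the same 4 thymus pools. The median log2 change of the tested members was -0.12 in arch and -0.12 in adipose tissue, beside -0.20 and -0.01 for all tested genes. Between arch and adipose tissue it was 0.01, beside -0.17 for all tested genes.

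**Figure D1:**
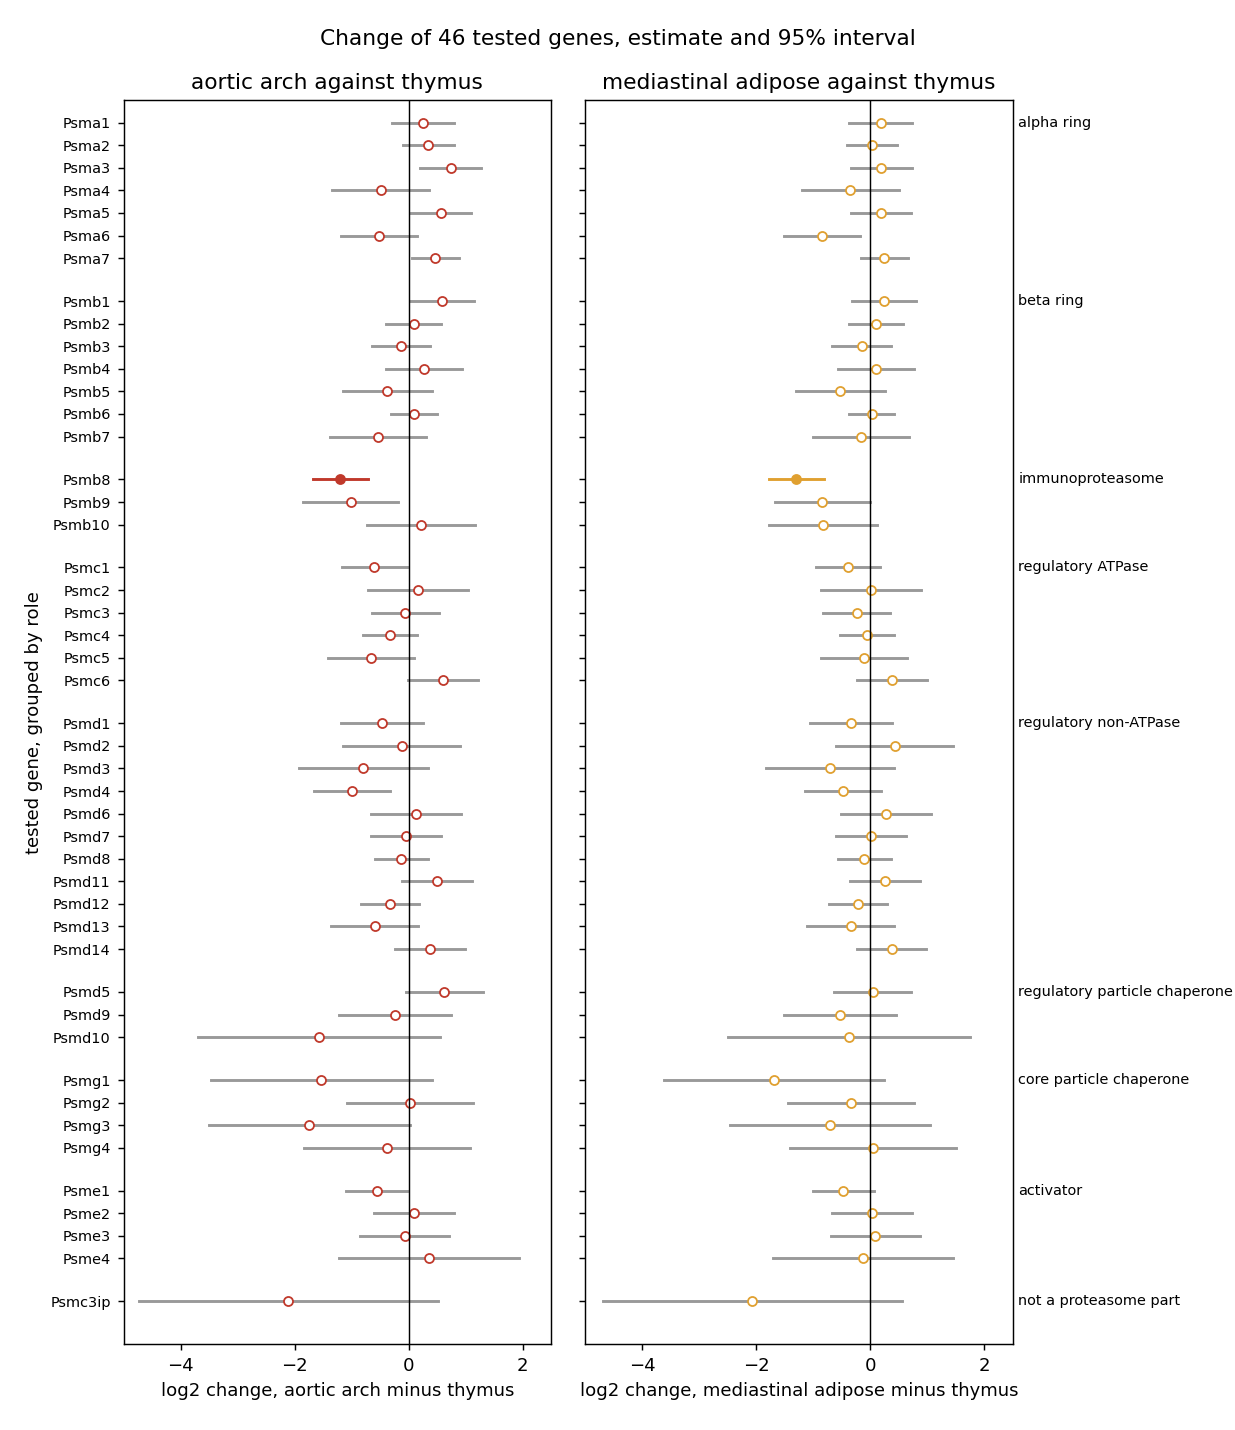
Log2 change (horizontal axis) of each of the 46 tested genes, grouped by role, in aortic arch minus thymus (left) and mediastinal adipose tissue minus thymus (right); points are limma estimates, bars their 95% intervals, filled points pass an adjusted p under 0.05. Psmb8 is the filled point in both panels, at -1.20 in arch and -1.30 in adipose tissue.

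Psmb8 (ENSMUSG00000024338; GRCm38 chr17:34197721-34201454, plus strand, 6 exons) encodes the immunoproteasome subunit that takes the chymotrypsin-like position. It had normalised read counts of 9042, 7477, 5709 and 11964 in arch pools 1 to 4, 5723, 8729.6, 7609 and 9223 in adipose pools, and 20262, 20374, 17833 and 17540.2 in thymus pools. Every arch and adipose pool lay below every thymus pool, and arch and adipose pools overlapped. The log2 change was -1.20 ± 0.23 (SE) in arch, a level 2.30-fold lower (95% interval 1.64 to 3.21; limma adjusted p = 0.0031). In adipose tissue it was -1.30 ± 0.23, 2.46-fold lower (95% interval 1.76 to 3.44; limma adjusted p = 0.00217). Arch minus adipose tissue was 0.10 ± 0.23, with a 95% interval of -0.39 to 0.58. Without the marker-rich pools the log2 changes were -1.40 in arch and -1.16 in adipose tissue, and both were called.

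The sum of DP thymocyte markers, like Psmb8, was lower in both other tissues than in thymus and did not overlap between thymus and either other tissue; its part in the difference was not tested. MHC class II genes, which mark antigen-presenting cells, summed to 0 to 423 CPM in arch, 14.8 to 1741 CPM in adipose pools and 36.0 to 55.7 CPM in thymus. All 7 were measured, and 4 of them (H2-Aa, H2-Ab1, H2-Eb1 and Ciita) had no read in thymus. Most of the thymus sum was H2-DMa, at a mean of 39.5 CPM beside a median sum of 39.8 CPM. Of the 3 tested genes H2-DMa was at log2 changes of -2.41 in arch and -1.09 in adipose tissue against thymus. Cd74 and H2-Ab1 were above 0 in both, and none of the 3 was called. Within adipose tissue Psmb8 was lowest in pool 1, the pool with the most MHC class II reads, whose part in this value was not tested. This was not particular to Psmb8: pool 1 was also the adipose pool with the smallest share of reads from all members, at 0.916%. An antisense gene that is not in the table, Gm20496, shares 186 exonic bases with Psmb8, and whether reads were counted by strand is not stated.

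Psmb9 (chr17:34181987-34187764, minus strand), which takes the caspase-like position, had 1569, 1585, 741 and 1685 in arch, 1598, 2328, 1170.3 and 1166 in adipose tissue, and 2228, 2538, 3231 and 2919 in thymus. Arch pools all lay below thymus pools, and adipose pool 2 reached into the thymus range. The log2 change was -1.01 ± 0.40 in arch (limma adjusted p = 0.133) and -0.84 ± 0.40 in adipose tissue (adjusted p = 0.386), so neither was called by limma. DESeq2 called the arch difference at -0.97 (adjusted p = 0.0412). Psmb9 shares 212 exonic bases with Tap1, which lies on the opposite strand, so reads there cannot be assigned to one of them without strand.

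Psmb10, which takes the trypsin-like position, had 1481, 1761, 2315 and 3884 in arch, 497, 1448, 1234 and 1408 in adipose tissue, and 1549.8, 2643, 2284 and 1373 in thymus. Thymus overlapped both other tissues, while each arch pool lay above each adipose pool. The log2 change was 0.22 ± 0.45 in arch (limma adjusted p = 0.824) and -0.83 ± 0.45 in adipose tissue (0.484). Arch minus adipose tissue was 1.04 ± 0.45 (0.456). Of the 3 immunoproteasome genes, 1 was thus called lower in each thymus comparison and 0 were called higher.

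The constitutive counterparts showed no called difference. Psmb5, the counterpart of Psmb8, had 2666, 1877, 2714 and 6748 in arch, 2948, 2110.2, 3858 and 2523 in adipose tissue, and 5323, 3127, 5027 and 3115 in thymus. The tissues overlapped and arch pool 4 was the highest of the 12. Its log2 change was -0.37 ± 0.37 in arch, with a 95% interval of -1.16 to 0.41, and -0.52 ± 0.37 in adipose tissue, with an interval of -1.31 to 0.26. The lower ends of those intervals lie close to the log2 changes of Psmb8. Psmb6, the counterpart of Psmb9, had 9403, 12092, 8868 and 9842 in arch, 8976, 9855, 10067 and 9001 in adipose tissue, and 8989, 8857, 11259 and 8349 in thymus. Its pools were close together in all 3 tissues, and the 95% intervals were -0.30 to 0.50 in arch and -0.38 to 0.42 in adipose tissue. Psmb7, the counterpart of Psmb10, had 4808, 4599, 2989 and 1172 in arch, 2473, 5250.0, 4422 and 3799 in adipose tissue, and 3487, 5152, 3229 and 5924 in thymus. Arch pool 4 was the lowest of all pools in Psmb7 and the highest in Psmb10, and the log2 changes of Psmb7 were -0.53 ± 0.40 in arch and -0.16 ± 0.40 in adipose tissue. Psmb7 shares 405 exonic bases with Nek6 on the opposite strand.

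**Figure D2:**
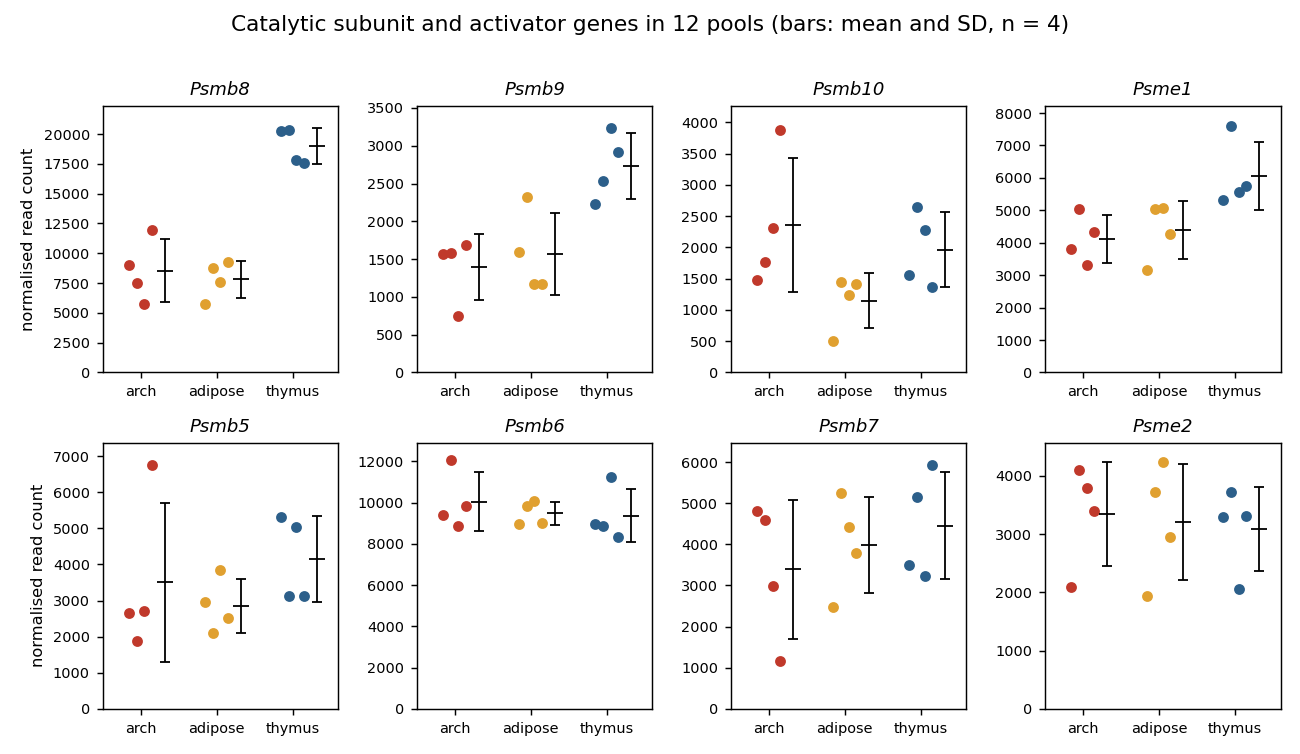
Normalised read counts (vertical axes, from 0) of 6 catalytic subunit genes and the PA28 genes Psme1 and Psme2 in 4 pools each of arch, adipose tissue and thymus; points are pools, bars the mean and SD. Psmb8 is at 5709 to 11964 in arch, 5723 to 9223 in adipose pools and 17540.2 to 20374 in thymus, whereas the tissues overlap in Psmb5, Psmb6, Psmb7 and Psme2.

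Ratios of each immunoproteasome gene to its counterpart were compared within pools, as the log2 difference of normalised read count + 20, where scaling of the pool cancels apart from the small part due to the added 20. The log2 ratio of Psmb9 to Psmb6 averaged -2.89 ± 0.47 in arch (SD, n = 4), against -2.64 ± 0.46 in adipose tissue and -1.78 ± 0.20 in thymus. No arch or adipose pool reached the thymus range. The differences were -1.12 in arch and -0.86 in adipose tissue, each with an exact two-sided permutation p of 0.0286, the smallest that 4 pools against 4 can give, and 0.129 after adjustment over the 9 ratio comparisons.

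The log2 ratio of Psmb8 to Psmb5 averaged 1.41 ± 0.55 in arch (SD, n = 4), against 1.46 ± 0.57 in adipose tissue and 2.23 ± 0.42 in thymus. The pools overlapped, and the differences of -0.83 in arch (exact permutation p = 0.0857, adjusted 0.193) and -0.78 in adipose tissue (0.143, adjusted 0.214) did not pass. A change of Psmb8 that differs from that of Psmb5 was thus not shown. The log2 ratio of Psmb10 to Psmb7 averaged -0.43 ± 1.53 in arch, -1.84 ± 0.35 in adipose pools and -1.18 ± 0.67 in thymus. Arch pool 4 alone was above 0 in this ratio, and the difference of arch minus adipose tissue was 1.41 (exact permutation p = 0.0571, adjusted 0.171). With a pool left out it was 0.70 to 1.83, the lowest without arch pool 4 and the highest without arch pool 1.

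**Figure D3:**
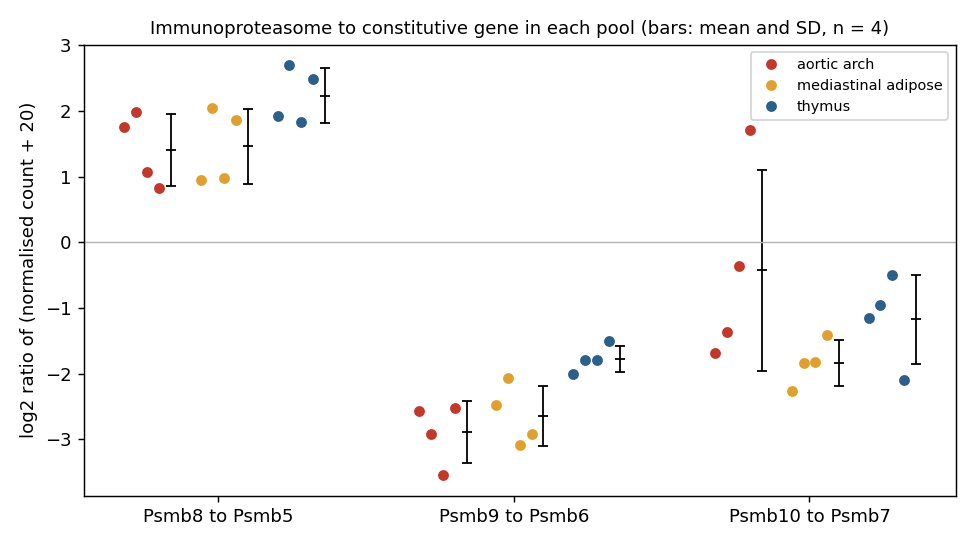
Log2 ratio of normalised read count + 20 (vertical axis) of each immunoproteasome gene to its constitutive counterpart in 12 pools; points are pools, bars the mean and SD of 4. The Psmb9 to Psmb6 ratio averages -2.89 in arch and -2.64 in adipose tissue, below -1.78 in thymus with no overlap of pools, while pools overlap in the other ratios.

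Per kilobase of the principal transcript, Psmb8 ranked 10th of 46 in arch, 11th in adipose tissue and 4th in thymus, at mean levels of 5251, 4804 and 11672 normalised reads per kb. Psmb5 had 3895, 3181 and 4614 per kb in the same tissues. The per-kb ratio of Psmb8 to Psmb5 averaged 1.55 ± 0.58 in arch (SD, n = 4), against 1.62 ± 0.63 in adipose tissue and 2.69 ± 0.79 in thymus. Psmb9 stood below its counterpart in each pool of all tissues: the per-kb ratio of Psmb9 to Psmb6 ranged over 0.0493 to 0.101 in arch, 0.0686 to 0.139 in adipose pools and 0.146 to 0.206 in thymus. The median per-kb level by role was 6304 for the alpha ring and 7145 for the beta ring in arch, 4823 and 5278 in adipose tissue, and 4190.2 and 4614 in thymus. For regulatory ATPase genes it was 3041 in arch, 3059.0 in adipose pools and 3565 in thymus. Chaperones of the regulatory particle (medians of 676 in arch, 693 in adipose pools and 775 in thymus) and of the core (966, 749 and 1191) were lower per kb than both core rings.

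**Figure D4:**
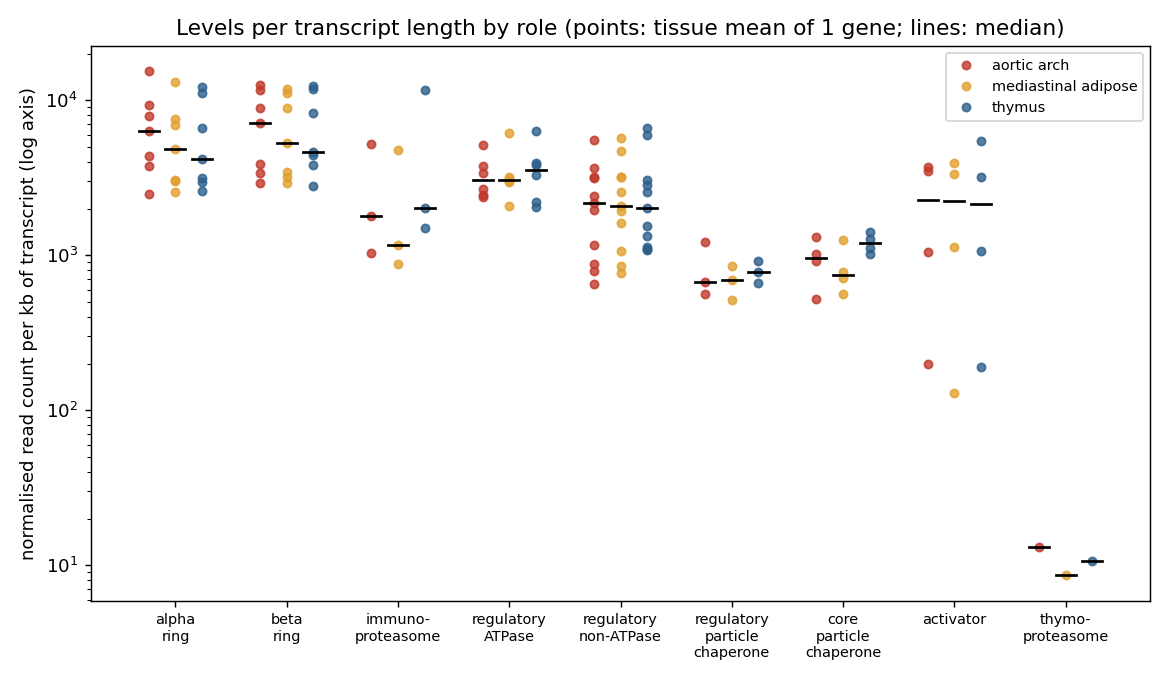
Normalised read count per kb of transcript (vertical axis, logarithmic) by role of the gene in arch, adipose tissue and thymus; each point is the mean of 4 pools for 1 gene and lines are medians over genes. Psmb8 is the upper immunoproteasome point, at 5251 per kb in arch, 4804 in adipose pools and 11672 in thymus, and the single thymoproteasome gene Psmb11 is lowest.

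Psmb11, which encodes the thymoproteasome subunit of cortical epithelium, is the member under the filter. It had 60.3, 39.9, 59.0 and 62.2 in arch, 48.2, 33.4, 27.6 and 36.7 in adipose tissue, and 33.4, 41.1, 72.8 and 34.6 in thymus. These are 21 to 74 recovered reads in arch, 23 to 83 in adipose pools and 42 to 59 in thymus, and the tissues overlapped.

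The PA28 genes, both on chromosome 14, showed no called difference. Psme1 had 3793, 5048, 3298 and 4327 in arch, 3169, 5041, 5062 and 4275 in adipose tissue, and 5319, 7598, 5555 and 5741 in thymus. All thymus pools lay above the others, yet the log2 changes of -0.56 ± 0.26 in arch (limma adjusted p = 0.205) and -0.47 ± 0.26 in adipose tissue (0.477) were not called. Psme2 had 2086, 4094, 3792 and 3403 in arch, 1945, 3713, 4235 and 2951 in adipose tissue, and 3295, 3721, 2052 and 3305 in thymus. Its pools overlapped, with log2 changes of 0.10 ± 0.34 in arch and 0.03 ± 0.34 in adipose tissue. Of the other activators, Psme3, which forms a nuclear cap, was at log2 changes of -0.07 ± 0.37 in arch and 0.09 ± 0.37 in adipose tissue and had 1328 to 3639 in arch, 1871 to 3751 in adipose pools and 2121 to 3984 in thymus. Psme4, the gene of the large activator PA200, ranged over 573 to 2439 in arch, 442 to 1415 in adipose pools and 191 to 2235 in thymus, so that the tissues overlapped.

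Among the 7 alpha-ring genes 0 were called by limma in the 3 comparisons. Psma3 had 9230.5, 12298, 11342 and 16815 in arch, 6275, 11913, 8378 and 7624 in adipose tissue, and 8674, 8813, 7230.4 and 5048 in thymus. Every arch pool exceeded every thymus pool, at a log2 difference of 0.74 ± 0.25 (limma adjusted p = 0.09). That difference was called by DESeq2 (0.74, adjusted p = 0.0497) and when the median change of all tested genes, which was -0.20 in arch, was set to 0 (0.94, adjusted p = 0.0284). Psma7 had 12384, 11522, 15916 and 16478 in arch, 12232, 11657, 12838 and 11036 in adipose tissue, and 9406, 10868, 12506 and 7980.3 in thymus. Its arch difference of 0.47 ± 0.20 (adjusted p = 0.163) likewise passed with the median set to 0 (0.67, adjusted p = 0.042).

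Psma6 had the lowest log2 change of the alpha ring in both thymus comparisons. It had 5283, 10938, 6033 and 16760.5 in arch, 4283, 8551, 8748 and 7305 in adipose tissue, and 10855, 14306, 13826 and 11492 in thymus. Adipose pools all lay below thymus pools (log2 change -0.85 ± 0.32, limma adjusted p = 0.223), and arch pools were split, with pools 1 and 3 low and pools 2 and 4 within or above the thymus range (-0.52 ± 0.32, adjusted p = 0.352). Without the marker-rich pools, which removes arch pools 2 and 4, the arch difference was -1.15 and called (adjusted p = 0.00779). Psma4 had 1203 to 4237 in arch, 1649 to 4264 in adipose pools and 2980.4 to 4591 in thymus.

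In the beta ring outside the catalytic genes Psmb1 had 7928, 11113, 9866 and 21335 in arch, 7364, 12193, 9477 and 8080.0 in adipose tissue, and 7551, 9114, 7310.5 and 7079 in thymus. Arch pool 4 was the highest pool, and the log2 changes were 0.59 ± 0.27 in arch (limma adjusted p = 0.194) and 0.24 ± 0.27 in adipose tissue (0.814). Psmb2, Psmb3 and Psmb4 lay between -0.15 and 0.27 in both thymus comparisons. Over the 7 beta-ring genes the 95% interval stayed within a 2-fold change for 4 in arch and 5 in adipose tissue.

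The 6 regulatory ATPase genes, whose products unfold the substrate, spread from -0.66 to 0.60 on the log2 scale in arch and from -0.39 to 0.39 in adipose tissue, and 0 were called by limma, edgeR or DESeq2. Psmc5 had 1404, 2299.7, 2999 and 5764 in arch, 4134, 4178, 2875 and 5232 in adipose pools, and 4207, 3871, 4604 and 4706 in thymus. Arch pools ranged from far below to above thymus in this gene (log2 change -0.66 ± 0.36, limma adjusted p = 0.286). Psmc6 had 6015, 10525, 8309 and 5538 in arch, 3825, 8262, 6890.0 and 7406 in adipose tissue, and 5038, 6072, 3349 and 5345 in thymus, at log2 changes of 0.60 ± 0.29 in arch and 0.39 ± 0.29 in adipose tissue. Psmc1 had 3125, 3045, 5545 and 5347 in arch, 4221, 4133, 5313 and 5417 in adipose tissue, and 7643, 6555, 5544 and 5374 in thymus, at -0.60 ± 0.27 in arch and -0.39 ± 0.27 in adipose tissue. Pools of the tissues overlapped in both genes.

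Psmd4, whose product is a ubiquitin receptor of the regulatory particle, had the lowest log2 change in arch among the 11 other subunit genes. It had 6005, 6848, 4640.4 and 1908 in arch, 6138, 5539, 5975 and 7414 in adipose tissue, and 8987, 8007, 10553 and 7583 in thymus. All pools of arch and adipose tissue were below those of thymus, and arch pool 4 was lowest. The log2 change was -0.99 ± 0.32 in arch (limma adjusted p = 0.0697) and -0.48 ± 0.32 in adipose tissue (0.603). Arch passed when arch pool 2 was left out (-1.21, adjusted p = 0.0361), and without arch pool 4 it was -0.60 (adjusted p = 0.143).

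The scaffold gene Psmd2 had 6494, 1653, 1480.3 and 4251 in arch, 5968, 2382, 2768 and 8002 in adipose tissue, and 4606, 2252, 2115 and 4345 in thymus. In all 3 tissues pools 1 and 4 were higher than pools 2 and 3 for this gene. The labels do not state whether pools of the same number belong together. The changes of Psmd2 were -0.12 ± 0.49 in arch and 0.43 ± 0.49 in adipose tissue. Psmd11, a lid subunit, had 4909.5 to 7718 in arch, 3040.3 to 7729 in adipose pools and 3615 to 5572 in thymus (0.49 ± 0.29 in arch and 0.25 ± 0.29 in adipose tissue). Psmd3, another lid subunit, had 661 to 2161 in arch, 524 to 3269 in adipose pools and 1263 to 2871 in thymus (-0.79 ± 0.54 in arch and -0.70 ± 0.54 in adipose tissue). Of these 11 genes 0 were called in the 3 comparisons by limma, edgeR or DESeq2.

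Of the 7 assembly chaperones of both particles 0 were called in the 3 comparisons by limma, edgeR or DESeq2, and 0 had an unadjusted limma p under 0.05. Psmd5, which helps assemble the ATPase ring, had 7112, 6163, 3906 and 4322 in arch, 2359.8, 6181, 3596 and 2756 in adipose tissue, and 3606, 3798, 2574 and 3658 in thymus. Arch pools did not overlap thymus pools, but the log2 change of 0.63 ± 0.32 was not called (limma adjusted p = 0.256). Psmd10 had 2084, 1082, 699 and 0 in arch, 868, 799, 1432 and 863 in adipose tissue, and 1477, 1041, 846 and 1864 in thymus. The single pool without a read, arch pool 4, where 3 reads would be 4.66, goes with a log2 change of -1.57 ± 1.01 in arch (limma adjusted p = 0.376). Psmd9, the remaining chaperone of this group, had 1172 to 2146 in arch, 587 to 2529.9 in adipose pools and 1351 to 2138 in thymus.

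Psmg1, a chaperone of the core, had 188, 89.4, 1102 and 2438 in arch, 85.4, 504, 1192 and 575 in adipose tissue, and 1245, 1422, 2065 and 1120.2 in thymus. Pools of arch and of adipose tissue spread over more than an order of magnitude, and the log2 changes of -1.53 ± 0.92 in arch (limma adjusted p = 0.342) and -1.69 ± 0.92 in adipose tissue (0.48) were not called. Psmg3 had 79.8, 1328, 303 and 124 in arch, 511, 537, 1196 and 281 in adipose tissue, and 797, 1181, 1422 and 529.6 in thymus, at -1.74 ± 0.84 in arch (adjusted p = 0.225) and -0.71 ± 0.84 in adipose tissue (0.827). The log2 change of Psmg2 was 0.03 ± 0.52 in arch and -0.34 ± 0.52 in adipose tissue, and that of Psmg4 was -0.37 ± 0.70 in arch and 0.05 ± 0.70 in adipose tissue. The 95% intervals of all 4 core chaperones reached past a 2-fold change in both thymus comparisons. Psmc3ip, the gene outside the proteasome, had 0 to 451 in arch, 0 to 593 in adipose pools and 307 to 1409 in thymus (-2.11 ± 1.25 in arch and -2.07 ± 1.25 in adipose tissue).

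Counted by pools, 6 of 46 members did not overlap between arch and thymus (Psma3 and Psmd5 higher, Psmb8, Psmb9, Psmd4 and Psme1 lower), which is 13% of members. Of all tested genes 6.6% did not overlap with arch higher and 6.64% with arch lower (13.2% in all). Between adipose tissue and thymus 4 of 46 did not overlap, all lower (Psma6, Psmb8, Psmd4 and Psme1), or 8.7%, against 5.48% of all tested genes with adipose tissue higher and 4.99% with it lower (10.5% in all). Between arch and adipose tissue it was 1, Psmb10, higher in arch, or 2.17%, against 2.46% of all tested genes with arch higher and 2.89% with it lower (5.35% in all). These shares are near or under the background and are no result about the members as a set.

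The spread between pools was narrower for the median member than for the median tested gene, but not for every member. The coefficient of variation over 4 pools had a median of 32.1% in arch, 26.9% in adipose pools and 23.4% in thymus for tested members, against 66.3%, 49.2% and 49.8% for all tested genes. Members were also more abundant, with a median normalised read count of 4191 in arch, 4246 in adipose pools and 4042 in thymus against 823, 855 and 875, and the part of abundance in the spread was not tested. Among members the coefficient ran from 14.1% for Psmb6 to 128% for Psmg3 in arch, from 5.62% for Psmd12 to 107% for Psmc3ip in adipose tissue and from 8.02% for Psmb8 to 83.0% for Psme4 in thymus. Of the 46, 7 lay above the median of all tested genes in arch, 7 in adipose pools and 2 in thymus. The 95% interval of the change stayed within 2-fold in either direction for 16 of 46 members in arch against thymus, 23 in adipose tissue against thymus and 27 in arch against adipose tissue. These are 34.8%, 50% and 58.7% of members, beside 8.2%, 10.5% and 11.9% of all tested genes.

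The 46 genes left after setting Psmc3ip aside, Psmb11 included, made up 1.06% ± 0.11 (SD, n = 4) of all normalised reads in arch pools, 1.05% ± 0.10 in adipose pools and 1.20% ± 0.03 in thymus pools. Psmb8 alone took 0.0392% ± 0.0117 in arch, 0.0386% ± 0.0071 in adipose pools and 0.0973% ± 0.0065 in thymus. Without Psmb8 the share was 1.02% ± 0.10 in arch, 1.01% ± 0.09 in adipose pools and 1.10% ± 0.03 in thymus.

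Among genes that act beside the proteasome, those called by limma were all higher outside thymus. Of 17 tested further parts, assembly factors and associated factors, 2 were called higher and 0 lower in each thymus comparison, and of 16 tested genes of ubiquitin supply, activation and shuttling 2 were called higher in arch and 0 in adipose tissue, with 0 lower in either. Of all tested genes 3.99% were called higher in arch and 2.17% in adipose tissue. At an unadjusted limma p under 0.05 there were 3 associated factors (17.6%) and 4 ubiquitin genes (25%) in arch against thymus, beside 22.7% of all tested genes. In adipose tissue against thymus there were 5 (29.4%) and 2 (12.5%), beside 12.8% of all tested genes. There edgeR and DESeq2 called 0 of the ubiquitin genes. In arch against adipose tissue 0 of either list were called by limma. In that comparison 1 gene of each (5.88% and 6.25%) had an unadjusted p under 0.05, beside 10.5% of all tested genes. Of both lists edgeR called 0 and DESeq2 called 1, Nfe2l2, higher in arch. DESeq2 also called Txnl1 higher in arch and Nfe2l2 lower in adipose tissue, each against thymus. Its calls over all genes were 1269 in arch and 701 in adipose tissue against thymus, and 300 in arch against adipose tissue. The median log2 change was 0.04 for the associated factors and 0.05 for the ubiquitin genes in arch, and 0.34 and 0.26 in adipose tissue, beside the medians of -0.20 and -0.01 over all tested genes.

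Ubb, a polyubiquitin gene, had 21517, 17987, 22898 and 25264 in arch, 14884, 22141, 20639.7 and 19382 in adipose tissue, and 13243, 13522, 13690.2 and 15857 in thymus. Arch pools lay above thymus pools and adipose pools overlapped both (log2 change in arch 0.63 ± 0.18, limma adjusted p = 0.0375), but this call was kept in only 1 of 8 fits that left out a pool (adjusted p up to 0.096), and it was lost with no filter on low values (0.053) and without the 3 pools with the fewest reads per library, which are arch pools 2 and 4 and thymus pool 3 (0.139). The change itself was 0.56 to 0.72 with a pool left out, 0.63 with no filter and 0.65 without those 3 pools, and edgeR (adjusted p = 0.0405) and DESeq2 (0.000799) called it.

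Ubqln1, whose product carries ubiquitinated substrates to the proteasome, had 14261, 12378, 16149 and 14456 in arch, 7274, 3555, 7011 and 9017 in adipose tissue, and 7411, 4085, 2629 and 6661 in thymus. Arch stood above both other tissues and those overlapped, at log2 changes of 1.57 ± 0.32 in arch (limma adjusted p = 0.00521) and 0.40 ± 0.32 in adipose tissue (0.691). Arch minus adipose tissue, at 1.16 ± 0.32, was not called (0.257).

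Zfand5, which encodes a zinc finger protein that binds and activates the proteasome, had 4460.1, 5495, 4664 and 6665 in arch, 8449, 4517, 5769 and 5258 in adipose tissue, and 2728, 1866, 2514 and 2115 in thymus. Thymus lay below both other tissues, with log2 changes of 1.20 ± 0.27 in arch (limma adjusted p = 0.0115) and 1.35 ± 0.27 in adipose tissue (0.00723). Without the marker-rich pools the arch change was 0.99 and no longer called (adjusted p = 0.079), and without the same 3 pools of fewest reads per library it was 1.04 (adjusted p = 0.105). Zfand2a, a related gene known for induction by arsenite, had 2719.9, 4639, 4688 and 6706 in arch, 1109, 1015, 1944 and 1340.0 in adipose tissue, and 117, 0, 0 and 558 in thymus. All pools outside thymus exceeded those of thymus, where pools 2 and 3 had no read, at 5.90 ± 0.87 in arch (adjusted p = 0.000271) and 4.15 ± 0.87 in adipose tissue (0.00958). The size in arch was 4.55 with a pseudocount of 100 and 8.12 with 1. Both calls depended on the test. In arch DESeq2 kept the call at 4.79 (adjusted p = 0.00362) and edgeR, at 4.80 (0.0718), did not. In adipose tissue neither called it, at 3.00 by DESeq2 (adjusted p = 0.206) and 3.04 by edgeR (0.404). The adipose call was also lost with a pseudocount of 1 (0.0527) and without the marker-rich pools (0.0511).

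**Figure D5:**
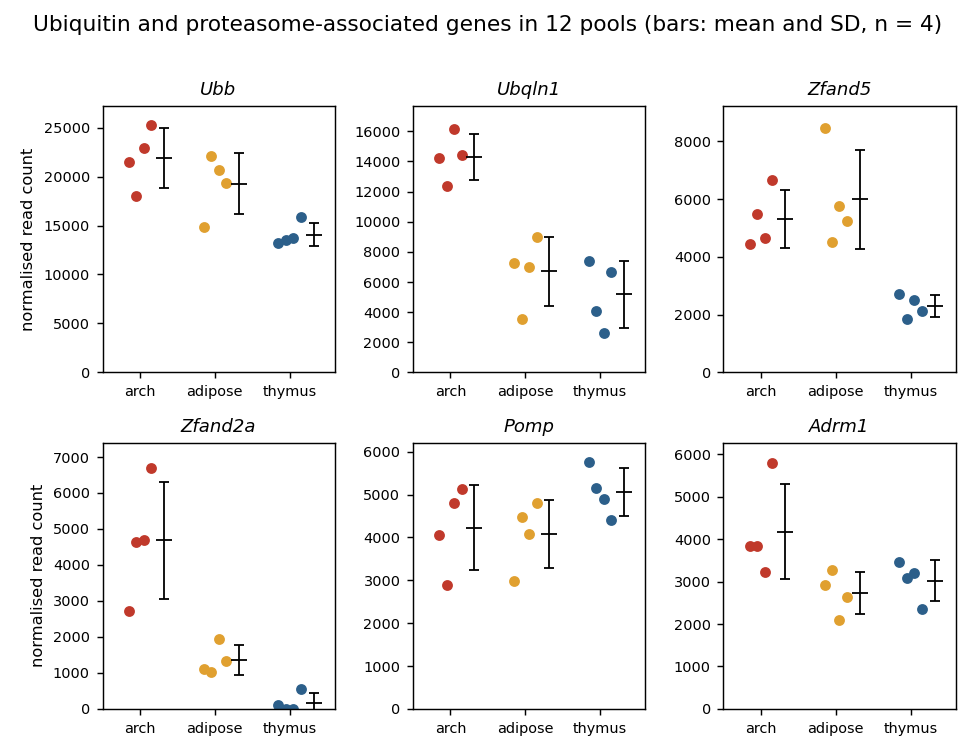
Normalised read counts (vertical axes, from 0) of the ubiquitin gene Ubb, the shuttle Ubqln1, the proteasome-associated Zfand5 and Zfand2a, the core assembly factor Pomp and the ubiquitin receptor Adrm1 in 4 pools each of arch, adipose tissue and thymus; points are pools, bars the mean and SD. Ubqln1 is at 12378 to 16149 in arch, 3555 to 9017 in adipose pools and 2629 to 7411 in thymus, whereas Pomp overlaps between tissues.

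Pomp, the maturation factor of the core, had 4046, 2901, 4814 and 5131 in arch, 2980.4, 4480.3, 4090.1 and 4807 in adipose tissue, and 5772, 5163, 4896 and 4413 in thymus, with log2 changes of -0.29 ± 0.27 in arch and -0.32 ± 0.27 in adipose tissue. Adrm1, another ubiquitin receptor of the regulatory particle, was at a log2 change of 0.44 ± 0.29 in arch and -0.15 ± 0.29 in adipose tissue. Shfm1, the older symbol of the lid subunit gene Sem1, was at 0.04 ± 0.26 in arch and -0.23 ± 0.26 in adipose tissue. Nfe2l1, a transcription factor that drives proteasome genes when degradation is impaired, was low, at 29.5 to 318 in arch, 0 to 989.6 in adipose pools and 0 to 213 in thymus, with SEs of 1.29. None of these 4 was called in the 3 comparisons by limma.

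The list named interferon-regulated partners of the immunoproteasome held 14 tested genes, among them Ifngr1 and Ifngr2, which encode the interferon-gamma receptor itself. Of the 14, 0 were called by limma in either direction in the 3 comparisons. An unadjusted limma p under 0.05 was found for 5, 2 and 3 in arch against thymus, adipose tissue against thymus and arch against adipose tissue. These are 35.7%, 14.3% and 21.4% of the list, beside 22.7%, 12.8% and 10.5% of all tested genes. edgeR called 0 of them. DESeq2 called B2m and Irf1 higher in arch and Ifngr1 and Ifngr2 higher in adipose tissue against thymus. It also called Irf1 higher in arch against adipose tissue. Over all genes DESeq2 called 1269, 701 and 300 in the 3 comparisons in the same order. The median log2 change of the list was -0.82 in arch and -0.04 in adipose tissue, each against thymus, beside -0.20 and -0.01 for all tested genes. In arch against adipose tissue it was -0.70, beside -0.17 for all tested genes. There 12 of 14 genes were below 0, beside 5278 of all 9106 tested genes. The median SE of the list was 0.68, beside 0.83 for all tested genes. Tap1 and Tap2 encode the transporter that carries peptides to MHC class I, and the order Psmb9, Tap1, Psmb8, Tap2 spans 34.3 kb of chromosome 17. Tap2 had 3103, 327, 634 and 456 in arch, 2594, 720.3, 663 and 1679.9 in adipose tissue, and 2997, 1669.6, 3486 and 2467 in thymus. Arch pools 2 to 4 lay below thymus and pool 1 within it, at a log2 change of -1.76 ± 0.63 (limma adjusted p = 0.101); in adipose tissue it was -1.08 ± 0.63 (0.53). Tap1 was at -1.08 ± 0.70 in arch (0.381) and -0.36 ± 0.70 in adipose tissue (0.905), with overlapping pools. B2m, the light chain of MHC class I, and Irf1, an interferon response factor, were not called by limma. B2m was at a log2 change of 0.84 ± 0.26 in arch (0.0592) and 0.30 ± 0.26 in adipose tissue (0.733). Irf1 was at 0.92 ± 0.32 in arch (0.0932) and -0.15 ± 0.32 in adipose tissue (0.917).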

How the data were processed

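The authors deposited 1 table for 12 pool columns, and its signal values behave as read counts divided by 1 factor per column. All 120369 values above 0 (100%) are whole multiples of the smallest value of their column within 0.01, so whole reads were recovered. Per the submitters' processing notes, FastQC 0.11.5, STAR 2.6.0c and the build GRCm38 were used. Not given in the sources used here are the annotation, the counting tool and how it treated strand and multiple mapping. GENCODE lists processed pseudogenes of Psmb5, Psmb6 and Psmb7, so reads of these genes could be split. Libraries were single-end reads of 50 bp after 18 amplification cycles, per the labels' protocols, which mention no molecular identifiers.

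The deposited signal was tested with limma 3.58.1 in R 4.3.3 with an intensity trend on log2(value + 20). A gene entered the fit where 4 or more columns reached 100, which is 4.91 CPM in the median column, and tissue was the only term over all 12 columns. Fold changes are on that scale, which understates changes of low genes. edgeR 4.0.16 (quasi-likelihood, TMM) and DESeq2 1.42.0 on the recovered reads, other pseudocounts (1 and 100), filters (500 and none), centring, pools left out and pool number as a block were alternatives. Ratios were tested by exact two-sided permutation over 70 assignments of 8 pools. Pool number was not a term of the main fit. Levels per kb use the length of the principal GENCODE M21 transcript. Columns are called pools, and p-values measure the spread between pools. The labels do not state how pools of different tissues relate. In their titles pool 1 has its own letter in each tissue (A in arch, B in adipose tissue, T in thymus). Pools 2 to 4 share another letter in each tissue (D, F and U in the same order). What the letters stand for is not stated.

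The members, gene lists and alternatives were chosen with earlier results of these data known. Some genes of the lists are not reported here. Per-pool values are given for the catalytic and PA28 genes, called members and members at the ends of each role's range, and up to 4 called genes per pathway list and comparison are named with Pomp, Nfe2l1, Adrm1 and Sem1. Tap1, Tap2, B2m, Irf1 and the genes called by DESeq2 alone, and the members named for pools that do not overlap, were chosen after their values were seen.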

Additional observations from a re-analysis of the deposited data

Results flagged for a closer look

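In groups of 4 pools, a pool was set apart where its gap to the nearest other pool took up more of the group's range than Dixon's 95% critical value allows, which happens by chance in about 1 of 20 groups. The 174 groups were of members, named pathway genes and the log2 ratios of immunoproteasome genes to their counterparts, which are made from members. Of them 11 held such a pool, which is near that rate over the 3 tissues together. The pools set apart were not spread evenly: most were in arch and the fewest in adipose tissue. Arch pool 4 was high for Psmb4 (6104, the others 3141 to 3511), Psmc2 (8627, the others 2573 to 3448), Psmg4 (1957, the others 291 to 344) and Shfm1 (10165, the others 5228 to 5306). Arch pool 3 was low for Psmb9 (741, the others 1569 to 1685) and Psmd1 (1488, the others 2735 to 2827) and high for Psmd9 (2146, the others 1172 to 1322). Arch pool 2 was low for Psmb11 (39.9, the others 59.0 to 62.2). Adipose pool 3 was high for Psmd10 (1432, the others 799 to 868). Thymus pool 3 was low for Psmd5 (2574, the others 3606 to 3798) and thymus pool 2 high for Psmg4 (1160.2, the others 508 to 591). Arch pool 4 is also the pool with the most fibroblast marker reads, at 3806 CPM; its part in these values was not tested.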

How the results depend on the processing

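Psmb8 stayed called lower under every alternative run, at -1.43 to -0.99 in arch and -1.39 to -1.16 in adipose tissue, each against thymus. Genes called in arch against thymus numbered 365 by edgeR, 1269 by DESeq2, 308 without the 3 pools of fewest reads per library, 345 without the 3 marker-rich pools (an alternative chosen after seeing the data) and 404 to 620 with a pool left out, against 598. In adipose tissue against thymus DESeq2 called 701 and fits without a pool 169 to 250, against 259. In arch against adipose tissue, against 16, a pseudocount of 1 gave 9, no filter 2, edgeR 8, DESeq2 300, the fits without the shallow or the marker-rich pools 0 each, and fits without a pool 2 to 14. Members called higher in arch against thymus numbered 2 with the median change set to 0 and 1 by DESeq2; members called lower numbered 2 by DESeq2, 2 without the marker-rich pools and 1 to 2 with a pool left out. With the median change set to 0 the median of the members was 0.081 in arch against thymus and 0.18 in arch against adipose tissue. The Psmb8 difference of arch minus adipose tissue was -0.10 without the shallow pools, -0.24 without the marker-rich pools and -0.080 to 0.28 with a pool left out, and that of its ratio to Psmb5 -0.24 to 0.14. The cause was not tested. Correlations of deviations between pools of the same number were -0.03 to 0.08, and those between pools of different numbers -0.09 to 0.07. Correlations this small cannot settle whether pools of the same number share mice. With the replicate block 608, 243 and 12 genes were called in the 3 comparisons. In that fit Psmb8 had limma adjusted p of 0.0042 in arch and 0.0034 in adipose tissue. In the main fit the 95% interval reached past a 2-fold change for 30 of 46 members in arch and 23 in adipose tissue, each against thymus.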
